A study of Mus musculus with 6 samples.

Results

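Transcripts of 10 chemokine and chemoattractant receptors were measured in cells recovered from the bone marrow of mice transplanted with MLL-AF9 leukemia cells. The receptors were Cxcr2, Cxcr4, Ccr1, Ccr2, Cx3cr1, Fpr1, Fpr2, C5ar1, C3ar1 and Ltb4r1. The 10 genes were taken by name from a table of 55487 genes, and all 10 were found and passed the filter on low values. The table holds 6 bulk RNA-seq libraries, 3 from recipients injected with PBS and 3 from recipients injected with pIpC. MLL-AF9 (MA9 in the labels) is a fusion oncogene that causes acute myeloid leukemia, and it was delivered by a retrovirus that also encodes GFP. All donor cells were C57BL/6, CD45.2(+), and carried Mx1-Cre and Brd9fl/fl, alleles in which the exons for the bromodomain of Brd9 are flanked by loxP sites. BRD9 is a subunit of a chromatin remodelling complex. The PBS group therefore had the same floxed alleles and the same Cre transgene as the pIpC group. Cre was driven by the Mx1 promoter, which responds to interferon, and pIpC, a synthetic stand-in for double-stranded viral RNA, makes cells release interferon. Cells other than the leukemia that respond to interferon were exposed to pIpC too, and no library of pIpC-treated cells without the floxed alleles was analysed here, so that Brd9 loss and the response to pIpC itself cannot be told apart. Each recipient, CD45.1(+) CD45.2(-), received 1000 leukemic cells. From the day after transplantation recipients were given PBS, or pIpC at 20 mg/kg, on alternate days, 3 doses in all, and marrow of femora and tibiae was taken 10 days after injection. The labels name the sequenced cells as GFP+ and describe lethal irradiation with 2 doses of 450 cGy, whereas the study's methods name sublethal irradiation and, for RNA from sorted mouse cells, live c-Kit+ cells negative for lineage markers. For its comparison of pIpC and PBS RNA, the study's results name c-Kit+ bone marrow cells and mention no lineage gate. A lineage-negative gate would remove most mature neutrophils, lymphocytes and red cells, and the labels do not mention one. The labels do not say that the libraries of a group came from separate recipients, so the p-values measure the spread between libraries, which may be partly technical. Age and sex were not given in the labels used here. The study's methods describe the recipients of 1000 leukemic cells as C57BL/6 mice 6 weeks old. Its legend for GFP+ blood cells in this experiment names males.

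These receptors are G protein-coupled receptors that let blood cells sense where to go. Chemokines are small secreted proteins that CXC, CC and CX3C receptors read as gradients: CXCR4 answers to CXCL12 made by marrow stroma and holds immature and mature cells in the marrow, CXCR2 draws neutrophils out toward the blood and inflamed tissue, CCR2 does the same for monocytes, and CX3CR1 marks patrolling monocytes. Formyl peptide receptors (Fpr1, Fpr2) sense bacterial and mitochondrial peptides, C5ar1 and C3ar1 sense fragments of complement, and Ltb4r1 senses the lipid leukotriene B4. In normal marrow, the fall of Cxcr4 and the gain of Cxcr2, Fpr1, Fpr2 and C5ar1 are landmarks of the last steps of neutrophil maturation.

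The promoters below belong to the 4 receptors with the largest rise and to both that fell, so that the stretches before genes that moved apart can be read side by side. Each is the 250 bases before the RefSeq start site (GRCm38.p6), 5′ to 3′ on the strand of the gene. Capitals mark letters that match 1 of 3 motifs on either strand: GAGGAA for PU.1, TTNNGNAA for C/EBP and GGNGGCAG for CTCF, where N is any base. PU.1 and C/EBP factors control myeloid genes, and CTCF is an organizer of chromatin loops.
Fpr2, chr17:17887574-17887823, plus strand: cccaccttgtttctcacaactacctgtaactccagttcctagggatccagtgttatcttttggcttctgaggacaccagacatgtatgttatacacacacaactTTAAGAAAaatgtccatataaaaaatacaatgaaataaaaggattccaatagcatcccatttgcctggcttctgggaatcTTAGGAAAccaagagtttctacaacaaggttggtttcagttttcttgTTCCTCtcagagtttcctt
Cxcr2, chr1:74153744-74153993, plus strand: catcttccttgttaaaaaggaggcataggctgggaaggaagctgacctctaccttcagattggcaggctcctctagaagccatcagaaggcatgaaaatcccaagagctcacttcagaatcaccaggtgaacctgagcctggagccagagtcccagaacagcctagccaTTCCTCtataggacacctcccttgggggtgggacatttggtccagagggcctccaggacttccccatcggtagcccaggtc
Fpr1, chr17:17883940-17884189, minus strand: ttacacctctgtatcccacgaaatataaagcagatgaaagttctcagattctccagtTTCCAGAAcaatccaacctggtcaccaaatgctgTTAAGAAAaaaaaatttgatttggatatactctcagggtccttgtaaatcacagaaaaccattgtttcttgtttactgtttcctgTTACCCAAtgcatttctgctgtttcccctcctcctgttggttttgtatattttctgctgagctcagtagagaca
C5ar1, chr7:16259339-16259588, minus strand: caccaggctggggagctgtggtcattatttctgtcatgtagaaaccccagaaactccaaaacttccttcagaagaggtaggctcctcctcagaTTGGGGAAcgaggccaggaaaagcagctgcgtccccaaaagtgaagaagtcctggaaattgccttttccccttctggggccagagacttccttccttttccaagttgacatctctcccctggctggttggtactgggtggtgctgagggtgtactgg
Cxcr4, chr1:128592300-128592549, minus strand: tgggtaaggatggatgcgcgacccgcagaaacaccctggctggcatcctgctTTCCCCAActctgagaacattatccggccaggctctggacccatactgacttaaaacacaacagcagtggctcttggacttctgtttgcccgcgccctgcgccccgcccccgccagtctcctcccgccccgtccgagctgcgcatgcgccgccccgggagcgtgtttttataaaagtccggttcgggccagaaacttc
Ccr1, chr9:123968693-123968942, minus strand: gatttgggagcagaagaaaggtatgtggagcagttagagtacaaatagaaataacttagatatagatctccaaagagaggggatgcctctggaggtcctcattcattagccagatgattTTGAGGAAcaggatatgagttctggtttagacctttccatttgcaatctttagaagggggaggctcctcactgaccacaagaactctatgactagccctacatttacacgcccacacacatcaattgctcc
Fpr1 and Fpr2 are neighbours on chromosome 17 that point away from each other, with 3883 bases between the annotated genes. Counting from the start site to the first base of the match on the strand printed, Fpr1 had 3 matches to the C/EBP letters, at 193, 159 and 74 bases. Fpr2 had a C/EBP match at 146 and another at 66 bases, and a PU.1 match at 19 bases. The sole match before Cxcr2 was to PU.1, at 81 bases, and that before C5ar1 was to C/EBP, at 157 bases. Of the receptors that fell, Cxcr4 had 1 C/EBP match at 198 bases, and Ccr1 had a PU.1 match at 129 bases that lies inside its C/EBP match at 131 bases. Over all 10 receptors, 4 windows held the PU.1 letters, 6 the C/EBP letters and 1, that of Cx3cr1, the CTCF letters. Of 32851 windows of the same length, 23.3% held the PU.1 letters, 36.8% the C/EBP letters and 9.93% the CTCF letters. Both motifs for myeloid factors occurred before receptors that rose and before receptors that fell, and a match of letters is a description of the sequence, not a binding site.

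Total reads on genes, recovered from the normalized counts, ranged from 19277439 to 23586722 per library. Brd9 did not fall at the level of the whole gene: its normalized counts were 1927, 1946 and 1632 in PBS and 2036, 2263 and 2011 in pIpC (log2 fold change 0.20 ± 0.13 (SE), limma adjusted p = 0.259; exact two-sided permutation p = 0.1, the smallest that 3 against 3 libraries allow). A whole-gene count includes exons that stay in the deleted allele, and values by exon were not analysed here, so the pIpC group is named below by its label and not as a knockout. PBS replicate 3 stood apart from the other PBS libraries, with a chi-square statistic per gene of 189 and 217 against them, where PBS replicates 1 and 2 differed by 6.86 and pIpC libraries by 8.75 to 18.6. Over all 15020 genes tested, 6808 passed an adjusted p under 0.1, of which 3750 were higher and 3058 lower in pIpC than in PBS. With quantile normalization, which moved the median of all genes to -0.12 on the log2 scale from 0.01, the split was 3244 higher and 4078 lower.

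Of the 10 receptors, 9 passed the test, 7 with higher and 2 with lower counts in pIpC than in PBS. Over all genes tested, 45.3% were called, 25.0% higher and 20.4% lower, and these shares also stand beside the counts of every gene list below. The groups did not overlap for the same count of receptors in each direction, 7 and 2, where 56.8% of all genes did not overlap, 30.5% higher and 26.3% lower. The median log2 fold change of the receptors was 1.81, against 0.01 over all genes. The rises were led by 3 receptors of mature neutrophils, Fpr2, Cxcr2 and Fpr1, and the falls were in Cxcr4 and Ccr1. In bulk RNA, a change in the number of cells of a type and a change in RNA per cell cannot be told apart, and this holds for every value below. Fold changes were fitted on log2(normalized count + 1), which understates the change of low genes. The plot of receptor transcripts in each library shows Fpr2, Cxcr2, Fpr1 and C5ar1 as the receptors whose groups lie farthest apart.

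**Figure D1:**
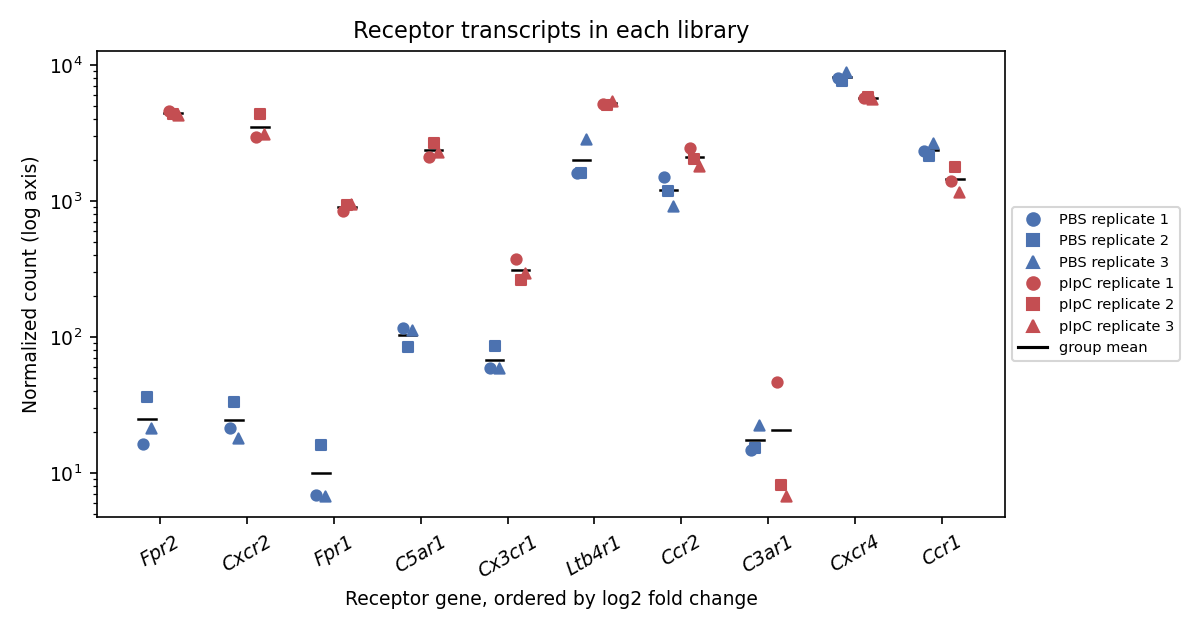
Normalized counts (log axis) of the 10 receptors in each library, ordered by log2 fold change; blue symbols are PBS and red symbols pIpC libraries, with 1 symbol shape per replicate number and a bar at the group mean. Fpr2, Cxcr2, Fpr1 and C5ar1 separate widely, Cxcr4 and Ccr1 are lower in pIpC, and C3ar1 is split by pIpC replicate 1 at 46.9.

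Fpr2 (ENSMUSG00000052270; chromosome 17, 17887824 to 17893952, GRCm38) had 16.4, 36.4 and 21.5 normalized counts in the PBS libraries, in the order of replicates 1, 2 and 3, which is kept throughout. The pIpC libraries had 4615, 4363 and 4288. Every pIpC library was far above every PBS library, and the pIpC libraries lay close together. The mean was 178-fold higher (log2 fold change 7.50 ± 0.28 (SE), limma adjusted p = 1.68e-05), and only 38 of the 15020 genes tested rose more. The Fpr2 count carries an uncertainty from related sequence: 31.5% of its 1295 stretches of 50 bases also occur in transcripts of Fpr1, Fpr3 or Gm5966, and 48 of its 1296 exonic bases are also exon of Fpr3. Gm5966 alone shared 368 of these stretches. In these libraries Gm5966 was listed at 0 and Fpr3 had at most 1 read. How reads that match several genes were counted was not settled, so these low values cannot bound the effect on Fpr2.

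Fpr1 (ENSMUSG00000045551; chromosome 17, 17876471 to 17883940), the high-affinity formyl peptide receptor, had 6.92, 16.2 and 6.79 normalized counts in PBS and 842, 933 and 949 in pIpC. These PBS values rest on 8, 16 and 6 reads, and their mean of 9.97 would not have reached the filter of 10 without the pIpC libraries; no other of the 10 receptors had a PBS mean under it. The mean was 91.1-fold higher in pIpC (6.48 ± 0.34, adjusted p = 3.77e-05), with no overlap. Unlike Fpr2, 1 of its 1275 stretches of 50 bases was shared with another gene. PBS replicate 2 had the highest value of the group for both Fpr1 and Fpr2.

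Cxcr2 (ENSMUSG00000026180; chromosome 1, 74153989 to 74161246), the receptor for the neutrophil-recruiting CXC chemokines, had 21.6, 33.4 and 18.1 normalized counts in PBS. In pIpC it had 2934, 4391 and 3112. PBS replicate 2 was again the highest of its group, and pIpC replicate 2 stood above the other pIpC libraries. The mean was 143-fold higher in pIpC (7.12 ± 0.27, adjusted p = 1.76e-05), and 65 genes rose more. Of its 3039 stretches of 50 bases, 6.68% also occur in transcripts of 220 other genes, none with more than 46 of them.

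C5ar1 (ENSMUSG00000049130; chromosome 7, 16246743 to 16259540), the receptor for the complement fragment C5a, started from a higher level, with 117, 84.0 and 112 normalized counts in PBS and 2097, 2674 and 2286 in pIpC. The mean was 22.6-fold higher in pIpC (4.49 ± 0.18, adjusted p = 1.77e-05), and the spread within either group was small beside the gap between them. C5ar2, the second C5a receptor, had 144, 96.2 and 54.3 in PBS and 412, 455 and 490 in pIpC.

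Neutrophil markers moved with these 4 receptors. All 12 of the list rose, from summed normalized counts of 25755 to 46284 in PBS to 2097359 to 2156321 in pIpC, or from 0.133% to 0.197% of a PBS library to 9.19% to 9.29% of a pIpC library. None of the 12 was at 0 in all PBS libraries, and Ngp, a granule protein and the most counted of them, had 3908, 7249 and 5246 in PBS and 605556, 598464 and 602721 in pIpC. The part of neutrophil abundance in the rise of Fpr2, Fpr1, Cxcr2 and C5ar1 was not tested. Leukemia self-renewal genes went the other way, with 6 of 8 lower, 1 higher, and sums of 38160 to 45257 in PBS and 15489 to 16021 in pIpC. Over all genes tested, 25.0% were called higher and 20.4% lower. The median log2 fold change of these 8 genes was -1.84, and 1 of the 8 had a PBS mean under the filter of 10. Hoxa9, a target of MLL-AF9 that was picked after its values were seen, had 4917, 5172 and 5301 in PBS and 224, 276 and 269 in pIpC. Both the neutrophil and the self-renewal list were written with earlier results of these data known. The share of recipient cells in the libraries was not measured here.

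**Figure D2:**
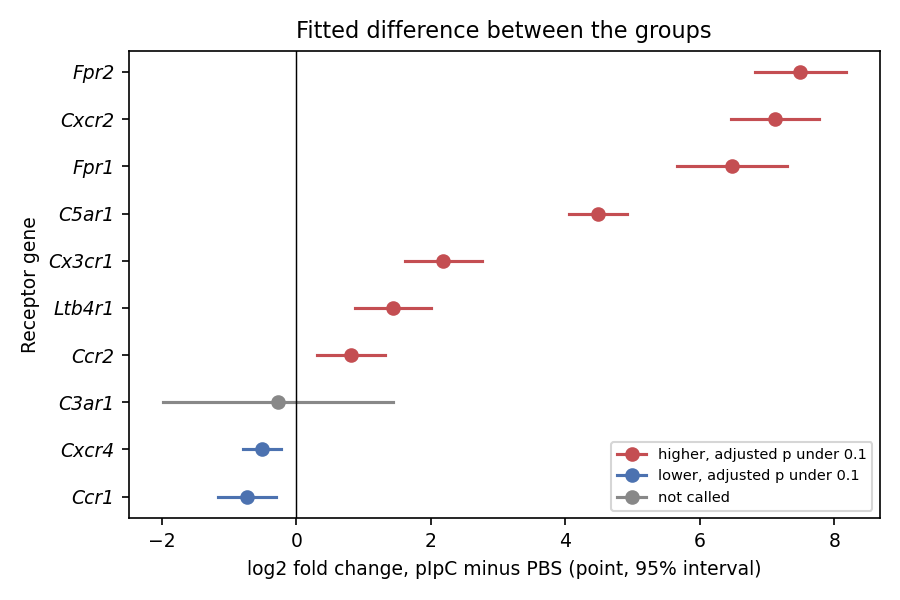
Log2 fold change of each receptor in pIpC against PBS (points) with its 95% interval (lines) from the limma fit; red marks receptors called higher, blue those called lower and grey the one not called. The estimates run from 7.50 for Fpr2 to -0.74 for Ccr1, and the interval of C3ar1, from -1.98 to 1.44, is the sole one that spans 0.

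Ltb4r1 (ENSMUSG00000046908; chromosome 14, 55765962 to 55768494), the leukotriene B4 receptor, was already abundant without pIpC, at 1593, 1604 and 2838 normalized counts in PBS, and had 5168, 5055 and 5458 in pIpC. PBS replicate 3 lay well above the other PBS libraries but below every pIpC library. The mean was 2.60-fold higher in pIpC (1.43 ± 0.24, adjusted p = 0.00365), and without PBS replicate 3 the log2 fold change was 1.71. The neighbouring low-affinity receptor Ltb4r2, 823 bases away, was at 78.7, 86.0 and 29.4 in PBS and 36.9, 38.8 and 60.9 in pIpC, which overlap, and was not called (adjusted p = 0.537).

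The receptors of the monocyte lineage, Ccr2 and Cx3cr1, rose by less than Fpr2, Cxcr2, Fpr1 and C5ar1. Ccr2 (ENSMUSG00000049103; chromosome 9, 124101950 to 124113557), which draws inflammatory monocytes from the marrow, had 1503, 1183 and 921 normalized counts in PBS and 2461, 2035 and 1796 in pIpC. The groups did not overlap, and PBS replicate 1 came nearest to the pIpC libraries. The mean was 1.74-fold higher (0.82 ± 0.21, adjusted p = 0.0237). Of its 6758 stretches of 50 bases, 1.91% also occur in other genes.

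Cx3cr1 (ENSMUSG00000052336; chromosome 9, 119901616 to 120069879), the fractalkine receptor, had 59.7, 86.0 and 58.8 normalized counts in PBS and 375, 265 and 296 in pIpC. All pIpC libraries were above all PBS libraries. The mean was 4.57-fold higher (2.18 ± 0.24, adjusted p = 0.000577). On the opposite strand 78 of its 4505 exonic bases are exon of Gm33858, and the labels and the study's methods disagree on whether the libraries keep the strand.

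Monocyte markers were mixed beside Ccr2 and Cx3cr1: 9 of 12 rose and 2 fell, with sums of 29981 to 32922 in PBS and 42842 to 47302 in pIpC, and none was at 0 in all PBS libraries. Of these 12, 2 had a PBS mean under the filter of 10 and were tested only through their pIpC values, which favours rises. Ly6c2, the most counted, had 21467, 21511 and 25870 in PBS and 32250, 28840 and 29525 in pIpC. Of the macrophage markers, 8 of 10 rose and 2 fell, 2 of the 10 with a PBS mean under 10, and their sum ran from 10341 to 14659 in PBS and from 6743 to 9071 in pIpC, led by Vcam1 with 9265, 9984 and 6015 in PBS and 3909, 4327 and 5096 in pIpC. Of the dendritic cell markers, 7 of 8 rose, but 5 of the 8 had a PBS mean under 10, and the sums overlapped, at 915 to 1701 and 1291 to 2024. Bst2, the most counted of them, had 596, 641 and 1490 in PBS and 920, 426 and 379 in pIpC. The part of these cells in the Ccr2 and Cx3cr1 values was not tested.

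Cxcr4 (ENSMUSG00000045382; chromosome 1, 128588199 to 128592293), the marrow retention receptor, was the most counted of the 10 receptors in PBS, with 8061, 7645 and 8880 normalized counts, and had 5687, 5797 and 5667 in pIpC. The pIpC libraries lay close together and all below the lowest PBS library. The PBS mean was 1.43 times the pIpC mean (log2 fold change -0.52 ± 0.12, adjusted p = 0.0147). Its ligand Cxcl12 had 59.7, 83.0 and 40.7 in PBS and 747, 498 and 654 in pIpC, a rise of 3.39 ± 0.30 on the log2 scale. Dpp4, the protease that trims CXCL12, also rose and is described with the ligands.

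Ccr1 (ENSMUSG00000025804; chromosome 9, 123962124 to 123968692), a receptor for CCL3, CCL5 and, in mice, CCL6 and CCL9, had 2338, 2154 and 2665 normalized counts in PBS and 1397, 1779 and 1168 in pIpC. The groups did not overlap, and pIpC replicate 2 came nearest to the PBS libraries. The PBS mean was 1.65 times the pIpC mean (-0.74 ± 0.18, adjusted p = 0.0197). Ccr1 and Ccr2 lie 133257 bases apart in the chemokine receptor cluster of chromosome 9 and moved in opposite directions.

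C3ar1 (ENSMUSG00000040552; chromosome 6, 122847138 to 122856161), the receptor for the complement fragment C3a, was the lowest of the 10 receptors per kilobase in both groups. It had 14.7, 15.2 and 22.6 normalized counts in PBS and 46.9, 8.17 and 6.77 in pIpC, which rest on 47, 8 and 7 reads. The groups overlapped, since pIpC replicate 1 was above every PBS library and the other pIpC libraries were below them. C3ar1 was not called (-0.27 ± 0.72, adjusted p = 0.789, 95% interval -1.98 to 1.44). Without pIpC replicate 1 the log2 fold change was -1.11 with an adjusted p of 0.0982, and C3ar1 was then called, while edgeR and DESeq2 on the recovered reads gave positive values of 0.23 that were not called. Over all alternatives the adjusted p of C3ar1 ran from 0.0982 to 0.95.

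Levels of different genes were compared per kilobase of exon, as normalized counts divided by the union of the exons in GENCODE M21. In PBS the order ran from Cxcr4 (4533 ± 348 per kilobase, SD, n = 3) through Ltb4r1 (1443 ± 513), Ccr1 (842 ± 91.4), Ccr2 (178 ± 43.1), C5ar1 (40.6 ± 6.89), Fpr2 (19.1 ± 8.02), Cx3cr1 (15.1 ± 3.43), Cxcr2 (8.0 ± 2.63) and Fpr1 (7.53 ± 4.07) to C3ar1 (4.07 ± 1.03). The ranges over libraries overlapped between Fpr2 and Cx3cr1, between Cxcr2 and Fpr1, and between Fpr1 and C3ar1, and no other neighbours in this order overlapped. In pIpC the order was Ltb4r1 (3750 ± 149), Fpr2 (3412 ± 132), Cxcr4 (3162 ± 38.8), Cxcr2 (1141 ± 261), C5ar1 (915 ± 114), Fpr1 (686 ± 43.3), Ccr1 (511 ± 109), Ccr2 (310 ± 49.9), Cx3cr1 (69.2 ± 12.7) and C3ar1 (4.79 ± 5.29). Only Cxcr2 and C5ar1 overlapped among neighbours there. Cxcr4 thus moved from the top of the order to below Ltb4r1 and Fpr2, and Fpr2 from the sixth place to the second. The place of Fpr2 between Ltb4r1 and Cxcr4 is less sure than the ranges show. Of its stretches of 50 bases, 31.5% also occur in other genes, against 0% for Ltb4r1 and Cxcr4. The effect of shared reads on this order was not tested.

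The summed level of the 10 receptors was 6421 to 8114 per kilobase in PBS libraries and 13730 to 14374 in pIpC libraries. Cxcr4 made up 64.2% ± 3.17 (SD, n = 3) of this sum in PBS and 22.7% ± 0.30 in pIpC. Fpr2 made up 0.277% ± 0.140 in PBS and 24.5% ± 1.25 in pIpC. The share of Ltb4r1 was 20.0% ± 4.44 in PBS and 26.9% ± 1.64 in pIpC, and PBS replicate 3, at 25.1%, fell just below the lowest pIpC library at 25.2%. Ccr1 went from 11.9% ± 0.332 to 3.65% ± 0.685 of the sum, while Ccr2, with 2.57% ± 0.822 and 2.22% ± 0.371, held a share that overlapped between the groups.

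**Figure D3:**
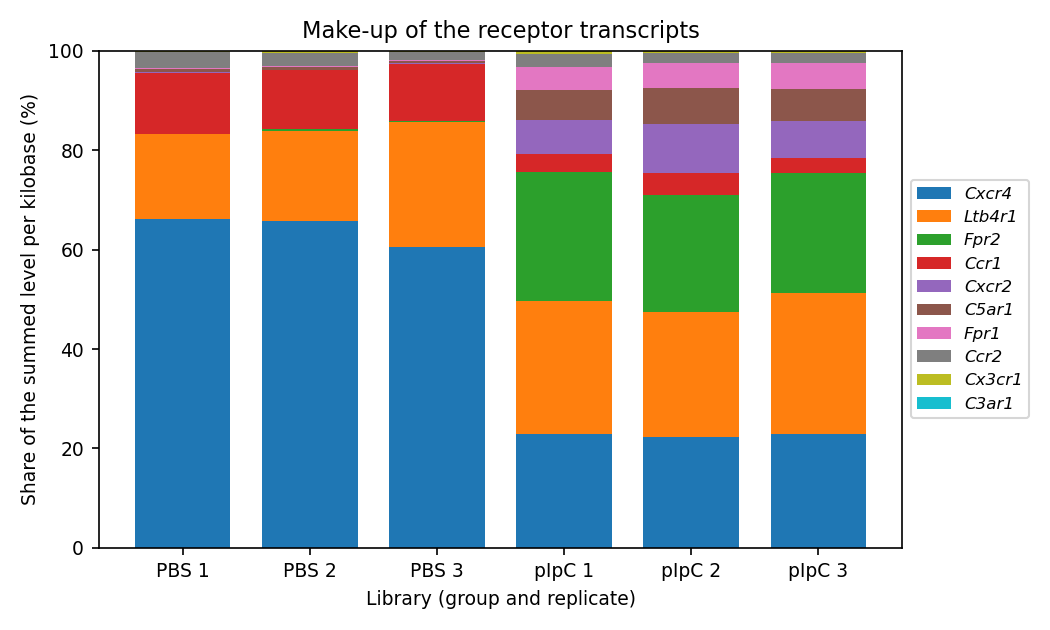
Share of each receptor in the summed level per kilobase of the 10 receptors, in percent, for each library (bars, colours as in the key). Cxcr4 takes 60.5% to 66.2% of the PBS bars and 22.3% to 22.8% of the pIpC bars, where Fpr2 takes 23.4% to 25.8%.

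Ratios between 2 receptors of a library do not depend on its size factor, and 4 were compared per kilobase, each with an exact two-sided permutation test that cannot go below p = 0.1 with 3 against 3 libraries. The Cxcr2 to Cxcr4 ratio, which sets the receptor for leaving the marrow against the one for staying, was 0.00159, 0.00259 and 0.00121 in PBS and 0.306, 0.449 and 0.326 in pIpC. The log2 ratio was 7.70 higher in pIpC. Cxcr4 remained above Cxcr2 in every library, and the groups did not overlap.

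The Ccr2 to Cx3cr1 ratio was 16.8, 9.17 and 10.4 in PBS and 4.37, 5.13 and 4.04 in pIpC, a difference of -1.38 in log2 ratio, since Cx3cr1 rose by more than Ccr2. The Fpr2 to Fpr1 ratio was 2.43, 2.30 and 3.24 in PBS and 5.60, 4.78 and 4.62 in pIpC, a difference of 0.92. This size rests on few PBS reads of Fpr1, and it was 1.48 with a pseudocount of 10. The C5ar1 to C3ar1 ratio was 13.3, 9.27 and 8.29 in PBS and 74.9, 548 and 566 in pIpC, a difference of 4.82, with pIpC replicate 1 apart from the other pIpC libraries. These pIpC ratios rest on 47, 8 and 7 reads of C3ar1, which was itself not called. Leaving out single libraries gave differences of 4.33 to 5.79. No ratio overlapped between the groups, and each of the 4 had p = 0.1 by the exact permutation test, also after adjustment over the 4.

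**Figure D4:**
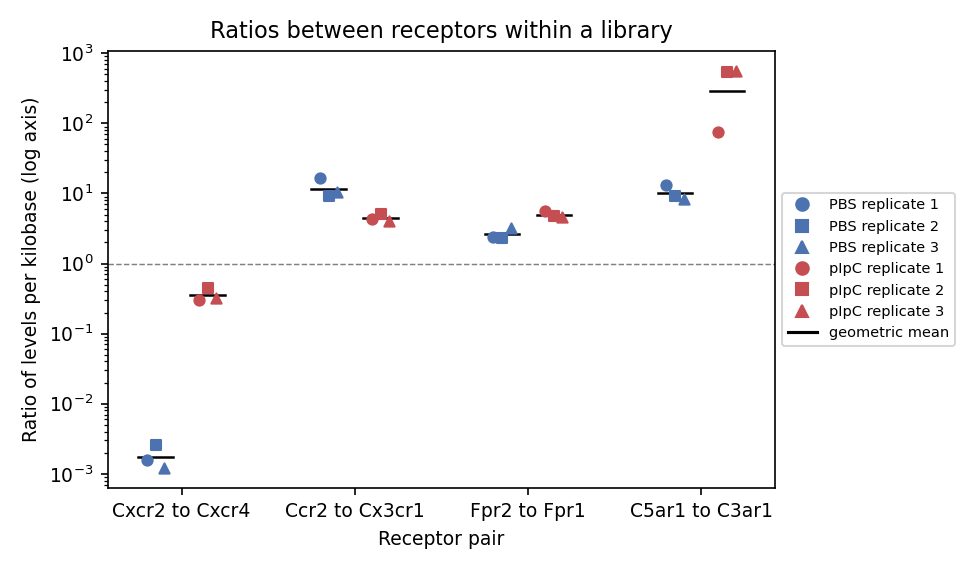
Ratios between receptor levels per kilobase in each library (log axis) for 4 receptor pairs, PBS in blue and pIpC in red, with bars at the geometric mean of a group and a dashed line at equal levels. The groups separate for each pair, most for Cxcr2 to Cxcr4, where the pIpC libraries lie between 0.306 and 0.449.

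Of 34 other chemoattractant receptors, 14 passed the filter on low values, and 11 of these rose and 2 fell, with a median log2 fold change of 2.04, unchanged with Cxcr5 at its bound. Of the 14, 8 had a PBS mean under 10 and were tested only because of their pIpC values, so that rises are favoured in this count and in the median. Of all 34, 19 had at most 3 reads in every PBS library and 5 had no read in any library. The largest rise was in Ccr3, the eotaxin receptor of eosinophils, at 0.865, 2.02 and 1.13 normalized counts in PBS and 97.8, 93.0 and 195 in pIpC. These PBS values are 4 reads in all, so that the ratio of 98.2 has a 95% counting interval of 38.0 to 362. Cxcr5, a receptor of B cells, had no read in PBS and 11.0, 28.6 and 24.2 in pIpC, at least 7.06-fold higher against a floor of 3 reads per library.

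S1pr1, the lymphocyte egress receptor, had 6.06, 3.04 and 1.13 in PBS, from 7, 3 and 1 reads, and 49.9, 49.0 and 58.0 in pIpC. Its PBS mean of 3.41 was under the filter, as were those of Ccr3 and Cxcr5. Both that fell did so by less: Gpr183, an oxysterol receptor, had 139, 128 and 188 in PBS and 71.9, 59.3 and 61.9 in pIpC (-1.21 ± 0.23, adjusted p = 0.00656). Ccrl2, a non-signalling chemerin-binding receptor, had 112, 96.2 and 113 in PBS and 87.8, 51.1 and 57.1 in pIpC (-0.74 ± 0.27, adjusted p = 0.0703), a call that was lost under 6 of the alternatives.

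Markers of eosinophils, basophils, lymphocytes and red cells moved beside these receptors, and their part was not tested. Of 9 markers of eosinophils, basophils and mast cells, 4 rose and 2 fell, and 1 of the 9 had a PBS mean under 10. Over all genes tested, 25.0% were higher and 20.4% lower. The sums of the 9 were 10735 to 17849 in PBS and 8749 to 11303 in pIpC. Prg2, the most counted, had 2060, 3865 and 8432 in PBS and 2929, 2714 and 2977 in pIpC. Rises in the next 3 lists were favoured by the filter, since 5 of 8 B cell markers, 5 of the 6 T and NK cell markers tested and 7 of 8 erythroid markers had a PBS mean under 10 and entered the test only through pIpC. All 8 B cell markers rose, with sums of 1775 to 2999 and 10119 to 40287, led by Ighm with 1587, 1749 and 2697 in PBS and 39147, 8397 and 17362 in pIpC. Of 8 T and NK cell markers, all 6 tested rose, with sums of 188 to 320 and 4005 to 4570, led by Nkg7 with 162, 167 and 301 in PBS and 4312, 3702 and 4056 in pIpC. All 8 erythroid markers rose, with sums of 19.0 to 33.9 and 3201 to 4601. Of these, Slc4a1, an anion exchanger of the red cell membrane, had no read in PBS, and Hba-a1, an alpha globin, had 1.73, 3.04 and 4.53 in PBS and 1664, 1041 and 1413 in pIpC.

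Of 32 ligands and enzymes that make or cleave ligands, 20 were tested, and 14 rose and 3 fell, with a median log2 fold change of 2.04, unchanged with Ppbp at its bound. Again 7 of the 20 had a PBS mean under 10, which favours rises in this count and in the median. Ppbp, a platelet chemokine whose product binds CXCR2, had no read in PBS and 345, 342 and 250 normalized counts in pIpC, at least 104-fold higher against the floor of 3 reads per library. Pf4, another platelet chemokine, had 2.60, 4.05 and 0 in PBS and 461, 457 and 277 in pIpC, and its ratio of 171 rests on 7 PBS reads (95% counting interval 82.9 to 427). Dpp4 had 2.60, 4.05 and 0 in PBS and 303, 385 and 330 in pIpC, with a ratio of 147 (70.9 to 366). Camp, the precursor of a peptide that binds FPR2, had 2264, 4048 and 6282 in PBS and 127040, 127674 and 133977 in pIpC (5.07 ± 0.35, adjusted p = 9.36e-05). Camp is also on the neutrophil list.

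The falls were chemokines of the inflammatory kind. Ccl3, a ligand of CCR1, had 1381, 1269 and 1187 normalized counts in PBS and 46.9, 32.7 and 45.4 in pIpC, so that the PBS mean was 30.7 times the pIpC mean (-4.92 ± 0.19, adjusted p = 1.77e-05). Ccl4, a related chemokine, had 74.4, 73.9 and 90.5 in PBS and 20.0, 13.3 and 3.87 in pIpC (-2.82 ± 0.55, adjusted p = 0.00721). Cxcl2, a ligand of CXCR2, had 114, 189 and 87.1 in PBS and 68.9, 70.5 and 54.2 in pIpC (-0.94 ± 0.32, adjusted p = 0.0623), and this call was lost without PBS replicate 2, without any 1 of the pIpC libraries, and at an adjusted p under 0.05.

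Of 37 genes that carry the signal of these receptors, all 37 were tested, and 18 rose, 2 fell and 17 were not called, with a median log2 fold change of 0.51. This is 20 of 37 called, where 45.3% of all genes were called, 25.0% higher and 20.4% lower. Pik3r5, a regulatory subunit of the PI3-kinase that G proteins switch on, had 393, 442 and 276 in PBS and 1667, 1933 and 1722 in pIpC (2.28 ± 0.20, adjusted p = 0.000213). Grk3, a kinase that desensitizes receptors, had 496, 467 and 195 in PBS and 1603, 1645 and 1657 in pIpC (2.2 ± 0.35, adjusted p = 0.00316). Fgr, a Src-family kinase of phagocytes, had 1152, 1418 and 1088 in PBS and 4562, 5490 and 5377 in pIpC (2.08 ± 0.15, adjusted p = 0.000106). Rgs1, which shortens G protein signals, had 58.0, 33.4 and 29.4 in PBS and 198, 157 and 129 in pIpC (2.02 ± 0.32, adjusted p = 0.00326).

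The 2 signalling genes that fell were Rgs2 and Arhgap15. Rgs2, another regulator of G protein signalling, had 4286, 4368 and 6207 in PBS and 2126, 1846 and 2283 in pIpC (-1.23 ± 0.18, adjusted p = 0.00221). Arhgap15, which restrains the GTPase RAC, had 3613, 3325 and 3517 in PBS and 2560, 2485 and 2505 in pIpC (-0.47 ± 0.11, adjusted p = 0.0135). The signalling count depended on single libraries: 12 genes were called without pIpC replicate 2 and 13 without pIpC replicate 3.

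**Figure D5:**
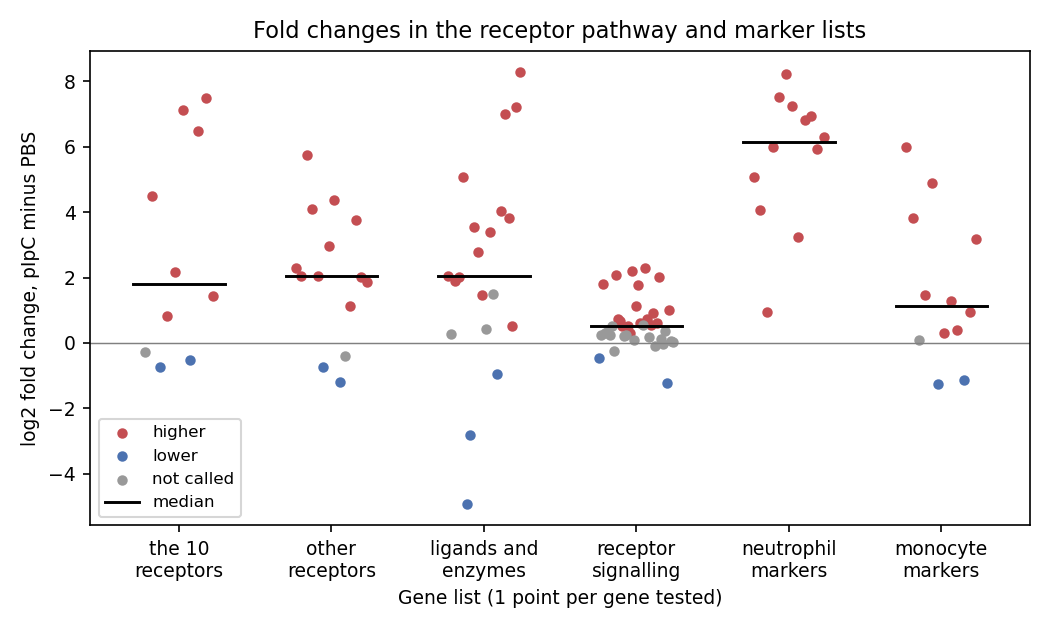
Log2 fold change of each gene tested in 6 lists (points; red called higher, blue called lower, grey not called), with a bar at the median of a list. The medians are 1.81 for the 10 receptors, 2.04 for the other receptors, 2.04 for ligands and enzymes, 0.51 for signalling genes, 6.15 for neutrophil markers and 1.12 for monocyte markers. Of the genes tested, 8 of 14 other receptors, 7 of 20 ligands and enzymes, 2 of 12 monocyte markers and 1 of 10 receptors had a PBS mean under 10. No signalling gene or neutrophil marker did. Such genes entered only through their pIpC values, which favours rises, so the medians are not strictly comparable.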

How the data were processed

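RNA from 6 bone marrow samples, 3 labelled PBS and 3 labelled pIpC, had been poly(A)-selected and sequenced. The authors deposited 1 table of normalized counts, used here as a signal with 1 size factor per library. The processing notes in the labels name GRCm38, HISAT2 (version 2.2.1), featureCounts and edgeR, whereas the study's methods name an nf-core pipeline with STAR and RSEM on mm10 and DESeq2, so which of these made the table was not settled. All values above 0 (100%) were whole multiples, within 0.01, of the value of 1 read, so reads were recovered. Replicates were not pooled.

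Values were tested as log2(normalized count + 1) with limma (version 3.58.1, R 4.3.3), letting the variance follow intensity, in the 15020 genes whose mean reached 10, without a replicate block, at a Benjamini-Hochberg adjusted p under 0.1, adjusted over all genes. The ± values of log2 fold changes are SE. Ratios were tested by exact permutation in SciPy (version 1.17.1). Exon lengths and positions came from GENCODE M21 (55227 of 55487 identifiers matched) and promoters from RefSeq. Protein sequences were not used here.

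The members and all 13 lists were written from general knowledge, but with earlier results of these data known. The text names the 10 receptors and Brd9; from the lists of other receptors, ligands and signalling genes, up to 4 of the largest rises and up to 4 of the largest falls past the threshold without overlap between groups; and the most counted gene of each marker list. A gene that this rule names is not reported here. C5ar2, Ltb4r2, Hoxa9, Cxcl12, Slc4a1, Fpr3 and Gm5966 were added after their values were seen.

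Alternatives were quantile normalization, median-centred log ratios, pseudocounts of 0.1 and 10, a minimum mean of 50 or none, no intensity trend, a replicate block, a threshold of 0.05, the removal of each library, and count tests of the recovered reads by edgeR (4.0.16) and DESeq2 (1.42.0). Counting intervals and floors cover counting error only. On simulated data of 15020 genes for this comparison, with 200 given a log2 change of 2, limma found 81% of those 200, and 8.47% of all its calls were false. The simulation changed far fewer genes than the 6808 called in the data and held no library set apart like PBS replicate 3. Its rates therefore need not hold for the calls above.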

Additional observations from a re-analysis of the deposited data

How the results depend on the processing

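The count of 9 receptors called, 7 higher and 2 lower, held under every alternative except the removal of pIpC replicate 1, where 10 were called; under a mean of at least 50, 9 of 9 tested were called, since C3ar1 was then not tested. Leaving out single libraries gave 4650 to 9783 calls over all genes, 12 to 14 for the other receptors, 15 to 18 for ligands and 12 to 28 for signalling genes. The 9 called receptors kept their direction and their call throughout. For C3ar1, not called in the main fit, leaving out single libraries gave -1.11 to 0.21, with a call without pIpC replicate 1 and 0.09 and 0.21 without pIpC replicates 2 and 3, and edgeR and DESeq2 gave 0.23 and 0.23; its sign thus differs with the library left out and with the tool, and the cause was not tested. The other receptors had 20 calls with no filter, where 29 were tested, and 6 of 7 with a mean of at least 50. Prg2, at -0.50, ran from -0.99 to 0.025 over the libraries left out. The ratios kept their direction under all alternatives, though the Fpr2 to Fpr1 difference of 0.92 was 1.48 with a pseudocount of 10, and Ly6c2 lost its call under 10. Same-numbered libraries correlated by -0.12, 0.14 and 0.04 in their deviations from group means. These values showed no clear pairing, but with 3 libraries per group they cannot exclude it. A replicate block gave 6095 calls over all genes, 9 receptors and no changed receptor call. For C3ar1, Fpr1, Cxcr2 and Fpr2 in PBS, counts of 6 to 36 reads per library limit the precision.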

Other observations

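Among the pIpC libraries, replicate 1 had the highest value of Ccr2 (2461 against 2035 and 1796), Cx3cr1 (375 against 265 and 296) and C3ar1 (46.9 against 8.17 and 6.77), and of Fpr2 (4615 against 4363 and 4288), while it had the lowest value of Cxcr2, Fpr1 and C5ar1. The same library was also the highest for the monocyte markers Cd300e, at 172 against 49.0 and 26.1, and Ctss, at 1281 against 832 and 773. For the monocyte marker Treml4 it was the lowest, at 436 against 444 and 454. The genes of this paragraph were chosen after their values were seen. The 3 markers come from a list of 12, and the rank of this library over the whole list was not counted. Among the most counted gene of each marker list, it was the highest for Ngp, Ly6c2, Bst2, Ighm, Nkg7 and Hba-a1. For Vcam1 it was the lowest, and for Prg2 it lay between the others. Over all the receptors of the main list, pIpC replicate 1 was the highest of its group for 4 and the lowest for 3. Replicate 2 was also the highest for 4 and was the lowest for 2. Replicate 3 was the highest for 2 and the lowest for 5. These counts do not set replicate 1 apart from replicate 2. A test of 1 library against the others is not possible with 3 libraries, and the differences of replicate 1 were not tested.

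Several receptors near 0 in PBS were listed above it in all pIpC libraries but stayed under the filter on low values, and have no test. Ccr7, a lymphoid homing receptor, had no read in PBS and 11.0, 20.4 and 10.6 normalized counts in pIpC. Cxcr1, the close relative of Cxcr2, had no read in PBS and 0.998, 13.3 and 4.83 in pIpC, where Cxcr2 had 2934, 4391 and 3112. Cmklr1, the chemerin receptor, had 0, 1.01 and 0 in PBS and 27.9, 13.3 and 11.6 in pIpC. Ackr2, a chemokine scavenger, went the other way, with 10.4, 7.09 and 7.92 in PBS and 0.998, 4.09 and 5.80 in pIpC. These genes too were named after their values were seen.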
